A study of Mus musculus with 70 samples.

Results

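The genes described here carry out fatty acid oxidation in mitochondria, peroxisomes and microsomes, or are known targets of PPARA. The set is a list of 34 gene symbols named by function, and it was drawn up with earlier results of these data known. All 34 were present in each of the deposited count tables, among 23839 symbols in the table of male liver and 24982 in the tables of female liver and of macrophages. RNA was sequenced from total liver (tissue lysate) and from sorted liver resident macrophages (F4/80high CD11blow) of male and female mice fed a NASH diet or a control diet for 24 weeks. In each tissue and sex the groups were OpnKI Mye mice on the NASH diet, Lyz2.Cre+/+ mice on the NASH diet, OpnKI Mye mice on the control diet and Lyz2.Cre+/+ mice on the control diet. OpnKI Mye, abbreviated KI here, denotes, as its name reads, an osteopontin knock-in in myeloid cells, osteopontin being the secreted protein encoded by Spp1. Lyz2.Cre+/+, abbreviated WT here, carries a Cre recombinase under the promoter of Lyz2, a gene of macrophages, monocytes and neutrophils, so that the WT mice are Cre carriers. The labels of the KI mice name no driver, and the strain, the starting age, the diets' composition and whether libraries came from separate animals were not given in the sources used here. The p-values therefore measure the spread between these samples, which may be technical. The 16 groups held 70 libraries, with 4 libraries in every liver group and every control-diet macrophage group, 5 in each male and 6 in each female NASH-diet macrophage group.

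As background, a long-chain fatty acid is first activated to its CoA ester by acyl-CoA synthetases such as Acsl1. It crosses into the mitochondrion as a carnitine ester through Cpt1a, the carrier Slc25a20 and Cpt2, and is then shortened in repeated rounds by dehydrogenases, hydratases and thiolases that pass electrons on through the Etf proteins. Peroxisomes shorten very long and dicarboxylic acids, and the microsomal Cyp4a enzymes make dicarboxylic acids by omega oxidation. PPARA is a nuclear receptor of hepatocytes that is activated by fatty acids and fibrates, binds DNA with RXR at repeats of the hexamer AGGTCA, and in mouse liver induces genes of all these steps, with Cyp4a10, Cyp4a14, Acaa1b, Ehhadh, Acot1, Pdk4, Vnn1 and Fgf21 among the responsive genes. Creb3l3 is a liver transcription factor that acts with PPARA on Fgf21.

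Depth was 11245097 to 29966174 counts per library in male liver, 17917827 to 23669846 in female liver, 16512356 to 24317721 in male macrophages and 17151791 to 26244679 in female macrophages. Expression is given as CPM, the read count normalised to library depth after TMM scaling. Male liver WT control libraries 3 and 4 differed by less than sampling noise over genes of moderate count (mean chi-square per gene 0.0671, where sampling noise alone gives 1 and the remaining 121 within-group pairs had 2.05 to 11.9), and were counted as 1 sample, so that this group has n = 3. The counts of the members in library 3 were 69.1% to 87.6% of those in library 4, and the count of Alb, the albumin gene, was 11.7%. In 3 of the 70 libraries the sex genes went against the labelled sex, namely male liver WT control 3 and 4 and male macrophage WT control 4, so calls and macrophage-to-liver percentages that use them are also given without them. In liver each sex came in its own deposited table, so that sex and table cannot be told apart and levels are not compared between the sexes there. Spp1 lay at 22.5 to 66 CPM in male KI NASH livers, against 126 to 562 CPM in male WT NASH livers, and at 41.5 to 200 CPM in male KI NASH macrophages, against 5.65 to 53.3 CPM in male WT NASH macrophages. Spp1 was also higher in KI control than in WT control macrophages, with 7.1 to 11.5 CPM against 0.277 to 0.55 CPM in males and 1.43 to 2.36 CPM against 0 to 0.193 CPM in females. In female NASH macrophages the genotypes overlapped, at 2.21 to 97.1 CPM in KI, against 1.19 to 11.8 CPM in WT. In female NASH livers 1 of 4 KI libraries lay within the WT range, at 26.1 to 52.9 CPM in KI, against 49.3 to 95.6 CPM in WT.

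Levels were compared between genes per kilobase of exon, as CPM per kb. The length joins all annotated exons of a gene. It is 10483 bases for Acsl1, whose longest protein-coding transcript has 3897, and 1516 bases in both for Acaa2. The order of the members depends on this choice. In male KI NASH livers the leading members were Acaa2, a thiolase of the mitochondrial spiral, at 478 ± 48.4 CPM per kb, and the peroxisomal thiolase Acaa1b at 399 ± 57.1 CPM per kb (mean ± SD, n = 4), whose ranges of about 1 SD overlapped. In male WT NASH livers Acaa1b led at 1231 ± 219 CPM per kb and Acaa2 followed at 549 ± 28.7 CPM per kb. In female livers Cyp4a14, a microsomal omega hydroxylase, and Acaa1b shared the top of the order in KI NASH, at 807 ± 77.3 and 802 ± 229 CPM per kb (n = 4), and did not differ beyond their spread. In these groups and in female WT NASH livers, Pdk4, Acot1 and Acot2 were among the lowest 5 members, with 1.34 ± 1.33 CPM per kb for Pdk4 in male KI NASH livers. Ppara itself stood at rank 8 of 34 in male KI NASH livers and rank 18 in male WT NASH livers, at 114 ± 35.2 CPM per kb in male KI NASH livers, against 78.4 ± 25 CPM per kb in male WT NASH livers.

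Of the 24 comparisons made, KI against WT livers of males on the NASH diet held the most changed members. In KI livers 19 of the 34 genes fell and none rose, at an adjusted p below 0.05 in edgeR's quasi-likelihood test with Benjamini-Hochberg adjustment over all 12988 genes tested, which is the meaning of rose and fell throughout. Among all genes tested 19.6% rose and 17.4% fell, and the median log2 fold change was -0.02 over all genes and -0.59 over the members. By role these were 7 of 10 genes of the mitochondrial spiral, 3 of 5 peroxisomal genes, both microsomal genes, 3 of 4 thioesterases, the other targets Pdk4, Fgf21 and Vnn1, and 1 of 5 genes of mitochondrial entry. The median log2 fold change was -0.03 for entry, -0.57 for the spiral, -0.17 for electron transfer, -0.61 for peroxisomal, -3.96 for microsomal and -2.12 for thioesterase genes. Leaving out single libraries left 14 to 20 members fallen.

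**Figure D1:**
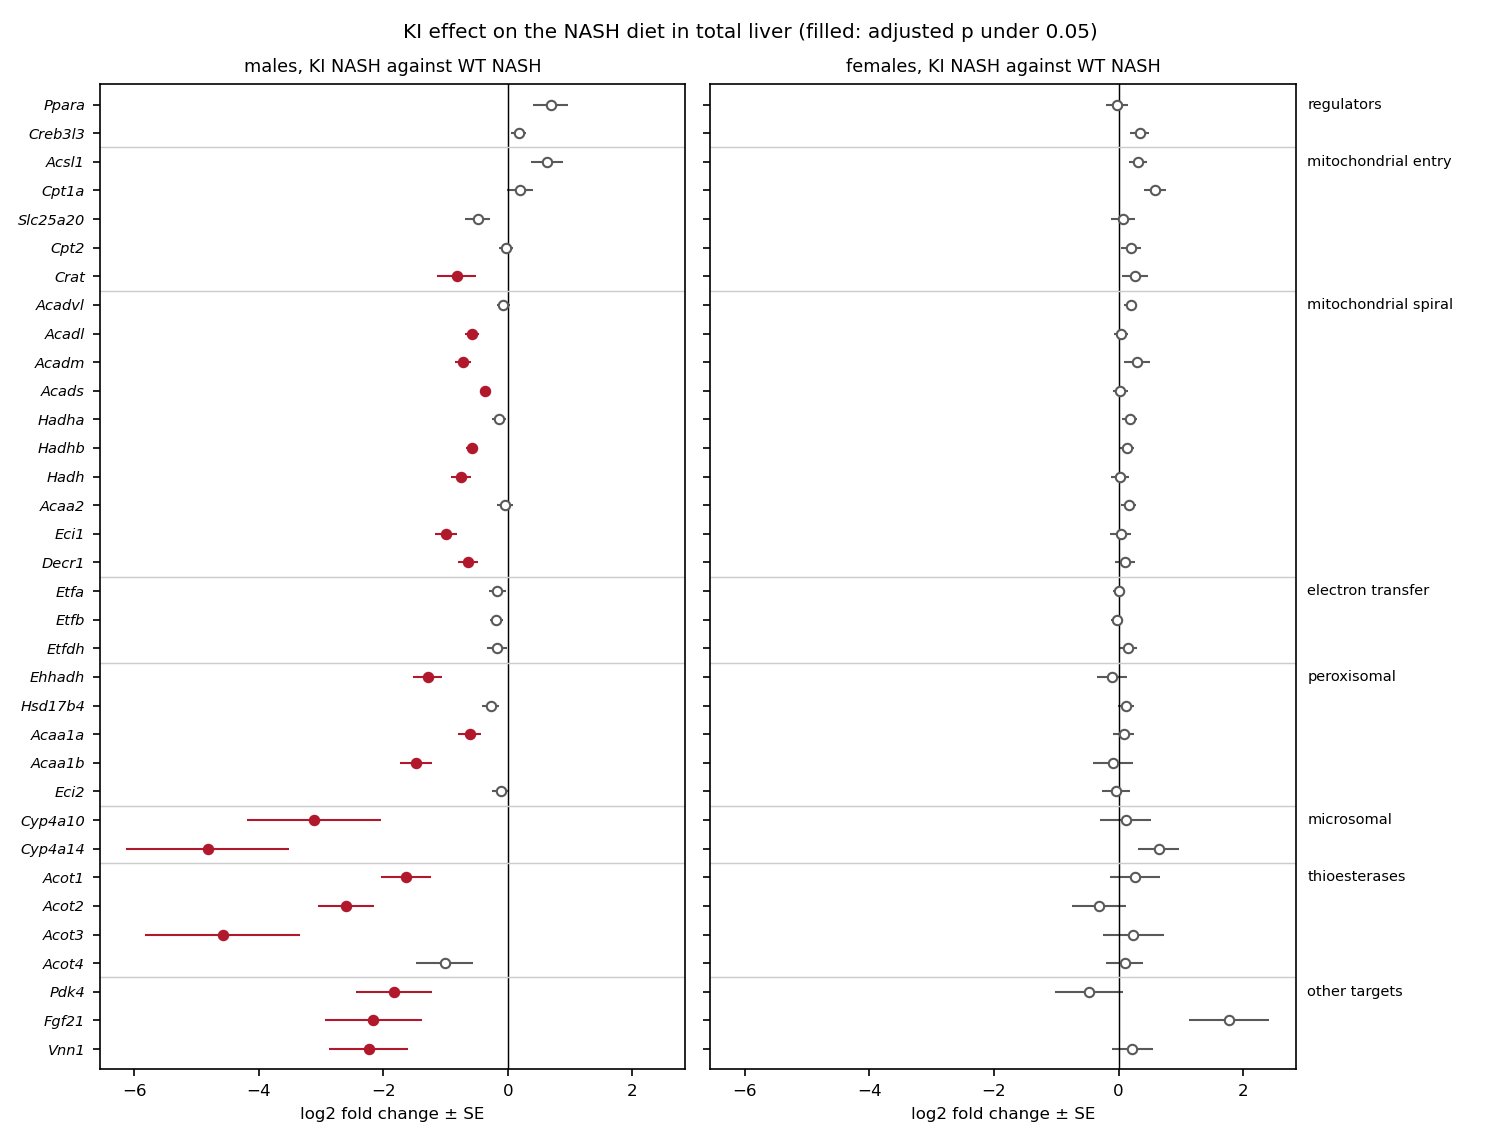
KI effect on the NASH diet for the 34 genes, grouped by role, in male livers (left) and female livers (right). The horizontal axis is the log2 fold change of KI over WT, the bars are ± 1 SE, and filled red points have an adjusted p below 0.05. In males 19 points are filled and all of them lie below 0, in females none is filled and 27 of 34 lie above 0. The share of all genes above 0 is not given here.

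The regulators did not pass the test. Ppara was at 598, 500.2, 428 and 250.1 CPM in the male KI NASH livers, against 146, 263, 369.9 and 325 CPM in the WT NASH livers (log2 fold change 0.69 ± 0.28, adjusted p = 0.0679; values after ± are standard errors, SE). The groups overlapped, with KI library 4 and WT library 1 the lowest of their groups. Creb3l3 was at 334, 358, 307 and 335 CPM in KI, against 281, 297, 295 and 312 CPM in WT (log2 fold change 0.17 ± 0.12, adjusted p = 0.274).

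Entry into the mitochondrion was mostly without a call. Cpt1a, the rate-limiting carnitine acyltransferase, was at 996, 800.5, 774 and 601 CPM in KI NASH livers, against 456, 654, 871 and 794 CPM in WT NASH livers (log2 fold change 0.19 ± 0.21, adjusted p = 0.482). Acsl1 had a log2 fold change of 0.62 ± 0.26 (adjusted p = 0.0727), Slc25a20, the carnitine-acylcarnitine carrier, of -0.48 ± 0.20 (adjusted p = 0.075), and Cpt2 of -0.03 ± 0.12 (adjusted p = 0.868). Crat, which moves acetyl groups to carnitine, was the member of this step that fell, to 69.7, 72.4, 46.5 and 49.9 CPM in KI, against 67.3, 103, 142 and 109.5 CPM in WT (log2 fold change -0.82 ± 0.31, adjusted p = 0.0478). The 2 groups overlapped for Crat, and its call was lost when any of 11 of the 15 libraries of the fit was left out, with values of -0.99 to -0.65.

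In the mitochondrial spiral 7 of 10 members fell, each without overlap between the groups. The share of all genes without overlap is not given here, so the lack of overlap does not set these members apart from other genes. Acadm, the medium-chain acyl-CoA dehydrogenase, was at 374, 313, 332 and 353 CPM in KI NASH livers, against 494, 567, 568 and 635 CPM in WT NASH livers (log2 fold change -0.72 ± 0.13, adjusted p = 0.000809). Hadhb, the thiolase subunit of the trifunctional protein, was at 172, 155, 151 and 148 CPM in KI, against 218, 229, 254 and 229.5 CPM in WT (log2 fold change -0.57 ± 0.10, adjusted p = 0.000648). Every KI library of both genes lay below every WT library, and the KI libraries varied little among themselves. Eci1, the isomerase for unsaturated fatty acids, was at 54.5, 46.1, 54.6 and 55.5 CPM in KI, against 69.7, 116, 116 and 118 CPM in WT (log2 fold change -0.99 ± 0.18, adjusted p = 0.00102). WT library 1 was the lowest WT library for Eci1 and still above all of KI. The other fallen members were Acadl and Acads, dehydrogenases of longer and of short chains, with log2 fold changes of -0.57 and -0.36, the hydroxyacyl-CoA dehydrogenase Hadh with -0.75 and the dienoyl-CoA reductase Decr1 with -0.64 (adjusted p 0.00221, 0.00609, 0.00342 and 0.00582). All of these 7 calls remained when any single library was left out. Hadha, the partner subunit of Hadhb, had a log2 fold change of -0.14 ± 0.11 (adjusted p = 0.318), Acadvl, the very long-chain dehydrogenase, of -0.07 ± 0.10 (adjusted p = 0.61) and Acaa2 of -0.04 ± 0.13 (adjusted p = 0.811). Of the 50-base stretches of Hadhb transcripts 62.4% also occur in another annotated gene, and 61.5% in Gm13910 alone. Its counts may therefore be split. Etfa, Etfb and Etfdh, which carry electrons to the respiratory chain, had log2 fold changes of -0.17, -0.19 and -0.17, and none of the 3 passed the test.

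Of the peroxisomal genes Ehhadh, the bifunctional hydratase and dehydrogenase, was at 275, 214, 269 and 262 CPM in KI NASH livers, against 902, 468, 615 and 506 CPM in WT NASH livers (log2 fold change -1.29 ± 0.23, adjusted p = 0.00104). The thiolase Acaa1b was at 754, 671, 838 and 906 CPM in KI, against 1517, 2444, 2656 and 2213 CPM in WT (log2 fold change -1.48 ± 0.26, adjusted p = 0.000866). For both genes each WT library was above each KI library. Acaa1a, the closely related thiolase, was at 165, 127, 147 and 167 CPM in KI, against 178, 273, 223 and 250 CPM in WT (log2 fold change -0.61 ± 0.19, adjusted p = 0.0197), and its call was lost without WT NASH library 2 or without KI NASH library 2. Acaa1a and Acaa1b share 34% and 35.5% of their 50-base stretches with other genes, and reads from the shared part may have been split. Hsd17b4, the second bifunctional enzyme, and the isomerase Eci2 did not pass, at log2 fold changes of -0.27 ± 0.13 (adjusted p = 0.119) and -0.12 ± 0.13 (adjusted p = 0.512).

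The microsomal genes had the lowest median log2 fold change of the roles. Cyp4a14 was at 35.7, 12.8, 5.01 and 12.6 CPM in KI NASH livers, against 202, 349.6, 720 and 591 CPM in WT NASH livers (log2 fold change -4.82 ± 1.31, adjusted p = 0.0111). Cyp4a10, also an omega hydroxylase, was at 93.7, 38.6, 19.8 and 39.8 CPM in KI, against 166, 371, 556 and 563 CPM in WT (log2 fold change -3.11 ± 1.08, adjusted p = 0.0353). No KI library of either gene reached the lowest WT library, and within each genotype the values spread over a severalfold range. The Cyp4a10 call was lost when any of 6 single libraries was left out, with values of -3.66 to -2.85. Of its 50-base stretches 30.5% are shared with Cyp4a31 or Cyp4a32.

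The thioesterases release free acids from CoA esters in the cytosol (Acot1), the mitochondrion (Acot2) and the peroxisome (Acot3 and Acot4). Acot1 was at 14.4, 6.7, 5.92 and 10.3 CPM in KI NASH livers, against 20.9, 30.8, 27.3 and 36.7 CPM in WT NASH livers (log2 fold change -1.64 ± 0.40, adjusted p = 0.00596). Acot2 was at 5.11, 2.78, 2.4 and 2.6 CPM in KI, against 16.5, 17.7, 26.6 and 17.3 CPM in WT (log2 fold change -2.60 ± 0.45, adjusted p = 0.000804). Acot1 and Acot2 were below every WT library in every KI library. Acot3 was at 2.51, 3.46, 0.744 and 0.882 CPM in KI, against 5.32, 22.4, 69.8 and 79.6 CPM in WT (log2 fold change -4.58 ± 1.24, adjusted p = 0.011). Acot4 was at 13, 19, 10.8 and 14.2 CPM in KI, against 10.03, 21.1, 41.1 and 42.5 CPM in WT (log2 fold change -1.01 ± 0.45, adjusted p = 0.0927), with overlap at WT library 1. The 4 genes share sequence to an unequal degree, with 33.2% of the 50-base stretches of Acot1, 27.7% of Acot2, 19.5% of Acot3 and 4.87% of Acot4 found in another gene.

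The Acot genes are neighbours on chromosome 12, and their promoter windows are shown because the log2 fold changes of these 4 genes were all below 0. Beside them stand the windows of Acadm and of Hadhb, the 2 spiral genes with the smallest adjusted p. Each window runs from 250 bases before to 50 after an annotated transcript start (RefSeq, GRCm38.p6), 5′ to 3′ on the gene's strand, and capitals mark the hexamer AGGTCA or its complement TGACCT. The windows are chr12:84009252-84009551 (plus strand) for Acot1, chr12:83987611-83987910 (plus) for Acot2, chr12:84051894-84052193 (plus) for Acot3, chr12:84038129-84038428 (plus) for Acot4, chr3:153944594-153944893 (minus) for Acadm and chr5:30155003-30155302 (plus) for Hadhb.
Acot1: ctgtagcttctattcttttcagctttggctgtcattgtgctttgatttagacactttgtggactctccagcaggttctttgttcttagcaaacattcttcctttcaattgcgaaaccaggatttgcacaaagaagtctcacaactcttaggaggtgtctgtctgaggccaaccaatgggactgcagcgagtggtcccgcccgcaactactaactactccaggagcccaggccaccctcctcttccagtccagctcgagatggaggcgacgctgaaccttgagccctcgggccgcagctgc
Acot2: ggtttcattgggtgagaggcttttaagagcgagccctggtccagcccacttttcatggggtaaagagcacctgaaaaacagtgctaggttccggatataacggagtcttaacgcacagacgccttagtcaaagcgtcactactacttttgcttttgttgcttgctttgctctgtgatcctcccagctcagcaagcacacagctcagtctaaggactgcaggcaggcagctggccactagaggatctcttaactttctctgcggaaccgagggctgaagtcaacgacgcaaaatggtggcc
Acot3: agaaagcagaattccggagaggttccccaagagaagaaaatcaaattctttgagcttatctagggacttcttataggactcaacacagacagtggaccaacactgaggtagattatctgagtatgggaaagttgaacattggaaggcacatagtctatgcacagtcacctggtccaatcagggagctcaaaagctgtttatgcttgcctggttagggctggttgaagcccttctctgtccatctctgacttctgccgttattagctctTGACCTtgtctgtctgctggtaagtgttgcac
Acot4: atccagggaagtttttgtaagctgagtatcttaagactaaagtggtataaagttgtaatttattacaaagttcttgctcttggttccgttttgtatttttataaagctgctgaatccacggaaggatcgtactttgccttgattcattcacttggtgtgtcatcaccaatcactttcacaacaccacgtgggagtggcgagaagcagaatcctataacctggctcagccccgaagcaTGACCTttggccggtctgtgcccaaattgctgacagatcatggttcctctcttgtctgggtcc
Acadm: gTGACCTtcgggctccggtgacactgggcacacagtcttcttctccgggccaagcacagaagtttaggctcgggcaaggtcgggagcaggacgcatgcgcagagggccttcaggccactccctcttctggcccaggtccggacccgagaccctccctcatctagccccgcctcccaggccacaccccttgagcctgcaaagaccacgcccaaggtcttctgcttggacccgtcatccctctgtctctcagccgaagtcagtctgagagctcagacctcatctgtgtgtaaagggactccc
Hadhb: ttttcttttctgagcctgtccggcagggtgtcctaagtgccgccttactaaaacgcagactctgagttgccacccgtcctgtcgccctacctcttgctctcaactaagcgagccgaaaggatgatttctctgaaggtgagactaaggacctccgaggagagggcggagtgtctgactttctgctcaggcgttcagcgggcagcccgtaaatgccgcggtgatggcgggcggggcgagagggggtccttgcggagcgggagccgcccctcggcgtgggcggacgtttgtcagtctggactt
The 4 Acot windows were 23.3% to 30.0% identical to each other, position by position. The Hadhb window shares 228 bases with that of Hadha, which is transcribed from the opposite strand. Hadhb passed the test above and Hadha did not, and the difference between the 2 was not tested. Windows were read for 27 of the 34 members, with 30 windows in all. The hexamer was held on either strand by 7 windows (23.3%) of 6 members, namely Acadm, Acadvl, Acot3, Acot4, Cpt1a and Creb3l3. Of all 32851 promoter windows 16.3% held it. The direct repeat AGGTCA, any base N, AGGTCA, or its reverse complement with TGACCT, occurred in 0.0396% of all windows and in none of the 30. No window was read for Crat, Acaa2, Hsd17b4, Decr1, Cyp4a10, Cyp4a14 and Vnn1. These members either had no annotated window or had theirs left out, so the hexamer was not looked for in them.

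The other targets fell as well. Vnn1, a pantetheinase on the hepatocyte surface, was at 44.6, 40.6, 35.2 and 16.5 CPM in male KI NASH livers, against 140.1, 158, 177 and 171 CPM in WT NASH livers (log2 fold change -2.24 ± 0.63, adjusted p = 0.0135), with no overlap. The call of Vnn1 was lost with DESeq2. Pdk4, the kinase that shuts off pyruvate dehydrogenase, was at 12.3, 2.15, 2.64 and 2.37 CPM in KI, against 22.4, 12.1, 23.1 and 11.4 CPM in WT (log2 fold change -1.82 ± 0.61, adjusted p = 0.0309). Fgf21, a hormone made by liver under fasting or stress, was at 12.5, 3.72, 1.66 and 1.49 CPM in KI, against 35.9, 17, 20.1 and 13.3 CPM in WT (log2 fold change -2.16 ± 0.78, adjusted p = 0.0416). KI library 1 was far above the other KI libraries for Pdk4 and Fgf21, and without it the log2 fold changes were -2.85 and -3.25. Leaving out any of 5 single libraries for Pdk4 and of 7 for Fgf21 ended the call.

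**Figure D2:**
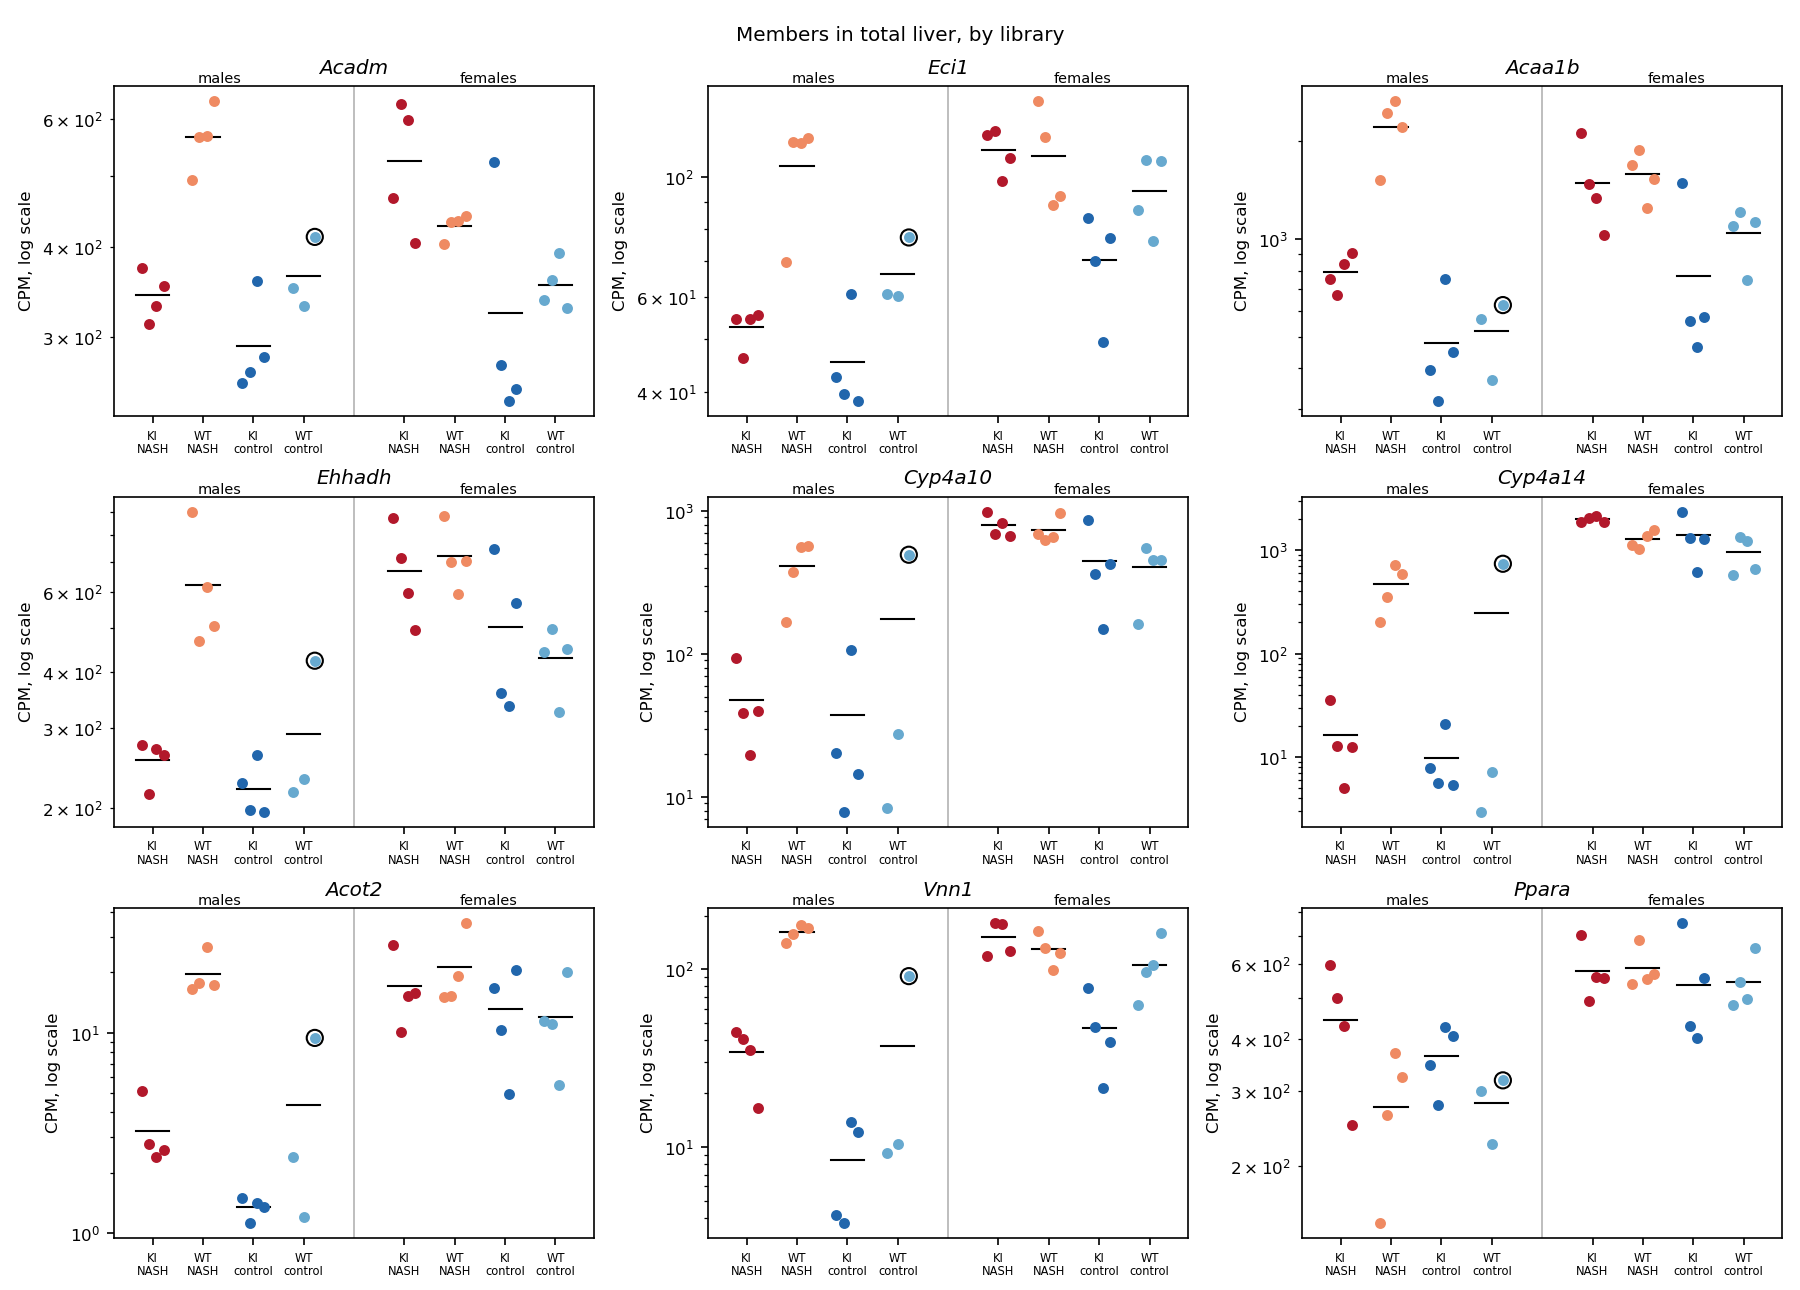
CPM per liver library of 9 members, on a log axis, with males on the left and females on the right of each panel. Groups run KI NASH, WT NASH, KI control, WT control from left to right, points are libraries, bars are group means, and the ring marks the mean of male WT control libraries 3 and 4. In males the WT NASH points of Acadm, Eci1, Acaa1b, Ehhadh, Cyp4a10, Cyp4a14, Acot2 and Vnn1 stand above the KI NASH points, and the ringed point stands apart from the other WT control points for Cyp4a10, Cyp4a14, Acot2 and Vnn1.

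Markers of other liver cell types differed between the same libraries. All 18 hepatocyte markers were above 0 in every male KI NASH library and 17 of 18 in every WT NASH library, and their summed level was 140700 to 189000 CPM in KI, against 123700 to 135500 CPM in WT. Spp1, the targeted gene, stood in the lists of lipid-associated macrophages and of cholangiocytes. The other 11 markers of lipid-associated macrophages summed to 616.2 to 776.5 CPM in KI, against 939.4 to 1589 CPM in WT, with no overlap. With Spp1 the sums were 682.2 to 799.1 CPM, against 1066 to 2152 CPM. Most of these sums was Ctsd, at 521.2, 466.3, 555.4 and 544.7 CPM in KI, against 774.6, 810.2, 759.3 and 703.7 CPM in WT. Trem2, Gpnmb, Cd9, Mmp12, Cd63, Lgals3, Itgax and Capg were also lower in every KI library than in every WT library. Lpl overlapped. Fabp5 was mostly higher in KI, at 60.34, 92.71, 126.9 and 31.65 CPM, against 51.87, 41.61, 32.55 and 12.02 CPM in WT, with overlap. The other 5 cholangiocyte markers overlapped, at 4.78 to 9.348 CPM in KI, against 8.787 to 62.2 CPM in WT. With Spp1 the sums were 29.12 to 74.17 CPM in KI, against 136.8 to 624.6 CPM in WT. The 8 stellate cell markers summed to 309.8 to 462.9 CPM in KI, against 717 to 1555 CPM in WT. The 8 markers of recruited monocytes summed to 2562 to 3912 CPM in KI, against 994.7 to 1550 CPM in WT. Nearly all of this sum was Fn1, at 3673, 3901, 3562 and 2549 CPM in KI, against 937, 1084, 1434 and 1523 CPM in WT. Ccr2 was lower in KI, at 2.46, 1.41, 2.5 and 1.11 CPM, against 12.9, 5.91, 10.8 and 6.96 CPM in WT. S100a4 was also lower in every KI library than in every WT library, and Ly6c2, Chil3, Vcan, Plac8 and Itgam overlapped. All markers of these 4 lists were above 0 in every library of both groups. Of the 5 erythroid markers Hba-a1, Hba-a2, Hbb-bs and Hbb-bt were at 0 in every library. The sum of this list was therefore Alas2 alone, at 108.6 to 155.6 CPM in KI, against 67.29 to 95.8 CPM in WT. The other lists overlapped. The 15 Kupffer cell markers were at 647.7 to 1120 CPM in KI, against 871 to 1204 CPM in WT, and 7 endothelial markers at 206.4 to 343.3 CPM, against 214.7 to 362.7 CPM. The 6 neutrophil markers were at 9.258 to 21.25 CPM, against 6.41 to 12.35 CPM, and 8 lymphocyte markers at 3.145 to 6.775 CPM, against 5.894 to 13.96 CPM. The part of these cell types in the result was not tested, and in bulk tissue fewer cells of a type and less RNA per cell cannot be told apart.

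In WT males many members were higher on the NASH diet. In WT livers 14 of 34 members rose with the NASH diet and none fell, where 11.3% of the genes tested rose and 9.76% fell, and the median log2 fold change was 0.37 over the members and -0.01 over all genes. By role 6 of 10 spiral genes, 4 of 5 peroxisomal genes, 2 of 4 thioesterases, Crat and Vnn1 rose. WT NASH libraries are shared with the KI comparison above, so that the 2 results are not independent. The control values of male WT livers depended on the merged sample of libraries 3 and 4, which are among those whose sex genes go against the label.

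Acaa1b, with the WT NASH values given above, was at 569, 368 and 626 CPM in the WT control livers, the merged sample last (log2 fold change 2.08 ± 0.29, adjusted p = 0.000848). Acadm was at 351, 331 and 412 CPM in WT control (log2 fold change 0.63 ± 0.14, adjusted p = 0.00702), and Ehhadh at 217, 232 and 423 CPM (log2 fold change 1.10 ± 0.25, adjusted p = 0.00937). The merged sample was the highest control sample for all 3 genes. Acot2 was at 2.41, 1.2 and 9.41 CPM in WT control (log2 fold change 2.17 ± 0.50, adjusted p = 0.00925), Acot1 at 7.46, 5.5 and 20.4 CPM (log2 fold change 1.38 ± 0.44, adjusted p = 0.0385) and Vnn1 at 9.3, 10.4 and 91.4 CPM (log2 fold change 2.12 ± 0.70, adjusted p = 0.045). For Acot1, Acot2 and Vnn1 the merged sample had more than the pair of other controls together. The further genes that rose were Hsd17b4, Acaa1a, Eci1, Hadh, Hadhb, Decr1, Acads and Crat, with log2 fold changes of 0.61, 0.67, 0.67, 0.59, 0.39, 0.50, 0.31 and 1.03. Ppara and Cpt1a did not pass, with log2 fold changes of -0.03 ± 0.30 (adjusted p = 0.959) and 0.21 ± 0.22 (adjusted p = 0.525).

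The values of the microsomal genes depended on the merged sample. Cyp4a14 was at 2.97, 7.17 and 737 CPM in the WT control livers, against which the diet gave a log2 fold change of 0.90 ± 1.22 (adjusted p = 0.627). Cyp4a10 was at 8.42, 27.7 and 493 CPM (log2 fold change 1.23 ± 1.11, adjusted p = 0.443) and Acot3 at 2.65, 3.27 and 184 CPM (log2 fold change -0.51 ± 1.09, adjusted p = 0.765). In each of these genes the last value, the merged sample, lay within or above the range of the WT NASH livers, and the other controls lay far below it. Without the merged sample Cyp4a14 had a log2 fold change of 6.49 (adjusted p = 0.001), Cyp4a10 of 4.5 (adjusted p = 0.0126) and Acot3, reversed in sign, of 3.89 (adjusted p = 0.013). Pdk4, at 2.97, 4.24 and 11.8 CPM in WT control, and Fgf21, at 1.28, 4.18 and 20.9 CPM, had log2 fold changes of 1.43 ± 0.67 (adjusted p = 0.141) and 1.28 ± 0.83 (adjusted p = 0.284), and without the merged sample of 2.24 (adjusted p = 0.0473) and 2.93 (adjusted p = 0.0325). In all, 17 members rose without it, Acads and Acaa1a no longer passed, at log2 fold changes of 0.31 (adjusted p = 0.0515) and 0.58 (adjusted p = 0.0799), and the log2 fold changes of Acot1, Acot2, Vnn1 and Crat became 2.16, 3.46, 4.03 and 1.65. Calls over all genes also grew, to 3376 in either direction without the merged sample, against 1465 that rose and 1268 that fell with it. Leaving out other single libraries gave 3 to 14 members, only Acadm, Acaa1b and Acot2 kept their calls under every such omission, and a fit on the 2 WT groups alone called 2 members.

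**Figure D3:**
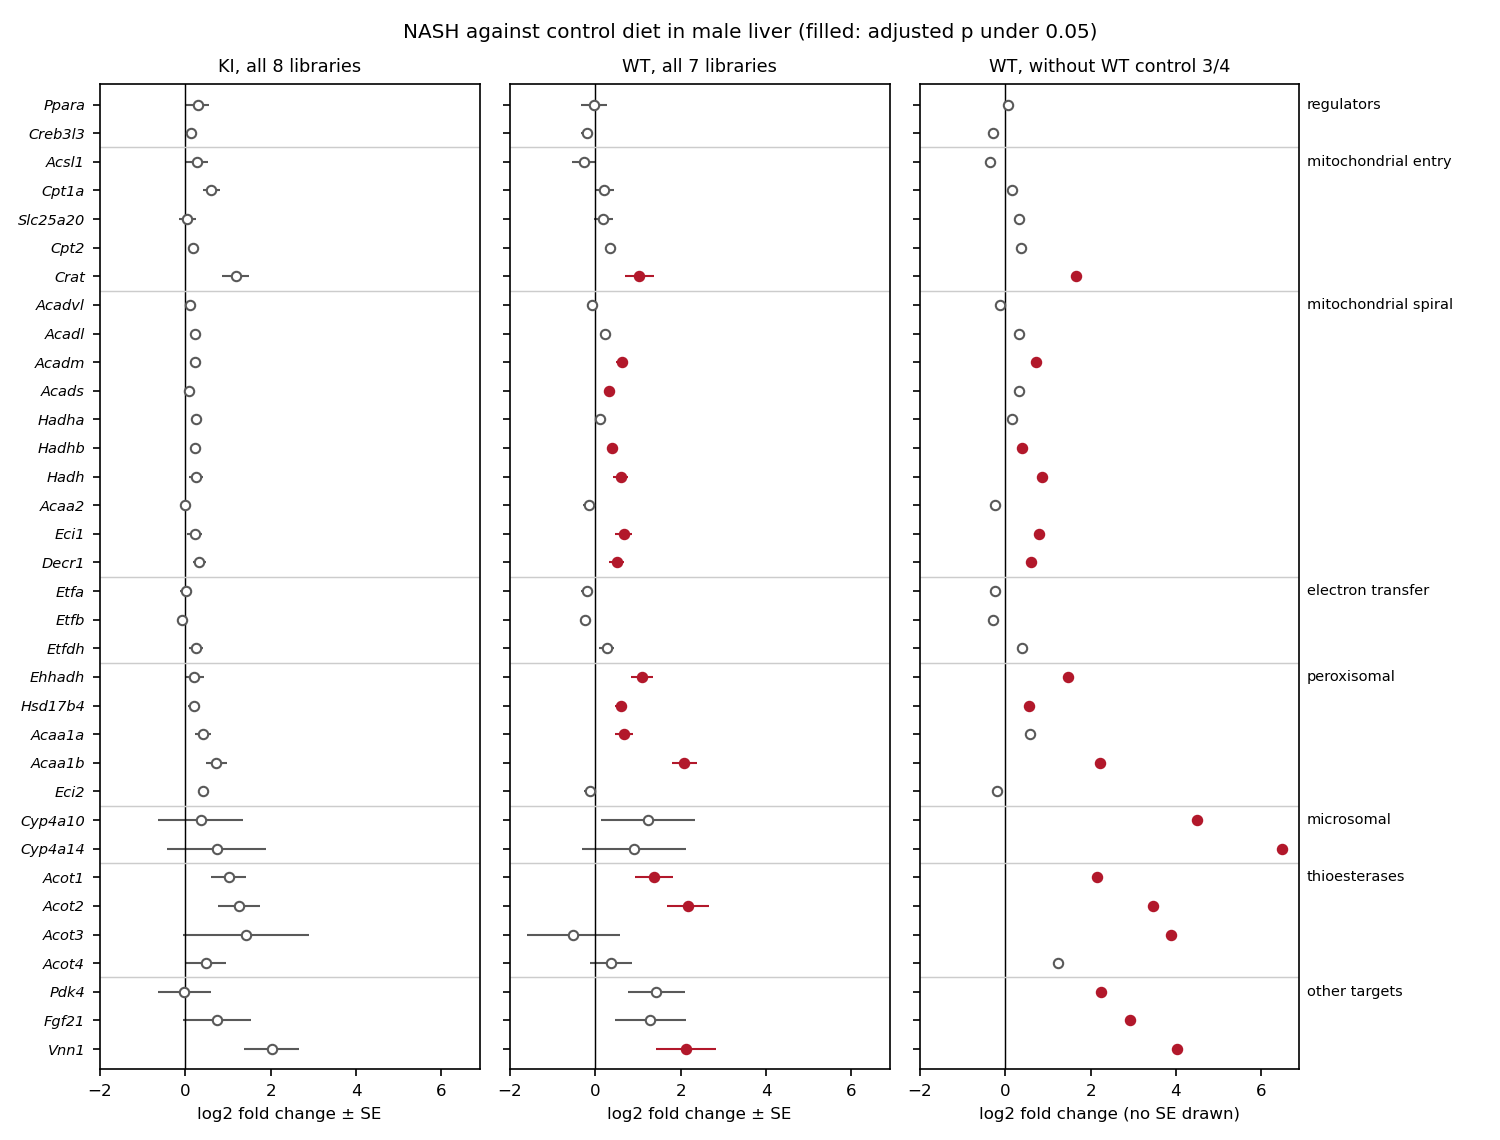
NASH diet effect in male livers for the 34 genes by role, as log2 fold change of NASH over control, in KI (left), in WT (middle) and in WT without control libraries 3 and 4 (right, drawn without SE). Bars are ± 1 SE and filled red points have an adjusted p below 0.05. In KI no point is filled, in WT 14 are filled, and in WT without those libraries 17 are filled, with Cyp4a14 at 6.49.

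In KI males the diet changed no member by this test, and 0% of the genes tested rose and 0% fell. At an unadjusted p below 0.05 there were 10 members and 847 genes, and DESeq2 called 1 member. The log2 fold change was above 0 for 31 of 34 members, with a median of 0.25. The share of all genes above 0 is not given here, so this count does not set the members apart from other genes. Acaa1b was at 394, 318, 753 and 450.2 CPM in KI control livers, with the KI NASH values given above (log2 fold change 0.73 ± 0.25, adjusted p = 0.589), and Vnn1 at 4.17, 3.74, 13.8 and 12.1 CPM (log2 fold change 2.02 ± 0.65, adjusted p = 0.531). For both genes KI NASH libraries were mostly higher, and for Vnn1 the groups did not overlap. Crat had a log2 fold change of 1.18 ± 0.31 (adjusted p = 0.441).

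Set directly against each other, the diet effects of KI and WT males differed for no member. 0.554% of the genes tested had a higher and 0.624% a lower diet effect in KI than in WT. DESeq2 called 1 member, and 4 members had an unadjusted p below 0.05. Without the merged WT control sample Acot2, Cyp4a14 and Ehhadh had a smaller diet effect in KI, with log2 differences of -2.21 (adjusted p = 0.0223), -5.76 (adjusted p = 0.0155) and -1.26 (adjusted p = 0.0313), and leaving out any other single library gave none. Calls over all genes also grew, to 626 in either direction without the merged sample, against 72 higher and 81 lower with it.

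On the control diet 4 members fell in KI male livers and none rose, where 2.78% of the genes tested rose and 1.93% fell. The median log2 fold change of the members was -0.37. Acadl was at 169, 152, 201 and 155 CPM in KI control livers, against 230.5, 235 and 281 CPM in WT control livers (log2 fold change -0.56 ± 0.13, adjusted p = 0.028), and Eci2 at 154, 132, 174 and 126 CPM in KI, against 242, 238 and 219 CPM in WT (log2 fold change -0.67 ± 0.14, adjusted p = 0.0231). Both were below WT in every KI library. Hadhb had a log2 fold change of -0.42 ± 0.10 (adjusted p = 0.0365). Acot3 was at 1.39, 0.374, 0.657 and 0.336 CPM in KI, against 2.65, 3.27 and 184 CPM in WT (log2 fold change -6.52 ± 1.44, adjusted p = 0.0271), and without the merged sample at a log2 fold change of -2.11 (adjusted p = 0.232). Cyp4a14, with 7.9, 5.61, 20.7 and 5.44 CPM in KI, had -4.65 ± 1.34 (adjusted p = 0.0592), which turned to 0.94 without the merged sample, and Cyp4a10, with 20.4, 7.86, 107 and 14.5 CPM in KI, had -2.24 ± 1.09 (adjusted p = 0.235), which turned to 1.04. Without that sample Eci2 alone was called, DESeq2 called 10 members, and single omissions gave 0 to 7. Over all genes 695 were called in either direction without that sample, against 361 that rose and 251 that fell with it.

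In female livers on the NASH diet no member rose or fell in KI, where 0.0676% of the genes tested rose and 0.0225% fell. DESeq2 called none, and 3 members had an unadjusted p below 0.05. WT NASH libraries 1 and 2 differed from 3 and 4 by a mean chi-square per gene of 6.08 to 7.565. Within these pairs it was 3.63 and 3.179. The log2 fold change was above 0 for 27 of 34 members, with a median of 0.12. The share of all genes above 0 is not given here, so this count does not set the members apart from other genes. Acadm was at 466, 628, 598 and 404 CPM in KI NASH livers, against 403, 432, 434 and 440.2 CPM in WT NASH livers (log2 fold change 0.29 ± 0.21, adjusted p = 0.57). Acaa1b was at 2116, 1479, 1333 and 1031 CPM in KI, against 1689, 1873, 1245 and 1527 CPM in WT (log2 fold change -0.09 ± 0.32, adjusted p = 0.93), and Ehhadh at 874, 712, 595 and 494 CPM in KI, against 882, 699, 594 and 704 CPM in WT (log2 fold change -0.11 ± 0.24, adjusted p = 0.881). The groups overlapped for all 3 genes. Cyp4a14 was at 1872, 2023, 2124 and 1883 CPM in KI, against 1120, 1029, 1352 and 1553 CPM in WT (log2 fold change 0.64 ± 0.33, adjusted p = 0.42), and Cyp4a10 at 981, 693, 827 and 668 CPM in KI, against 690.3, 623, 652 and 961 CPM in WT (log2 fold change 0.12 ± 0.41, adjusted p = 0.929). Every KI library of Cyp4a14 was above every WT library, without passing the test, and Cyp4a10 overlapped. Cpt1a was at 899.6, 832, 839 and 929.5 CPM in KI, against 555, 728, 502 and 543 CPM in WT (log2 fold change 0.59 ± 0.18, adjusted p = 0.226), also without overlap. Ppara was at 704, 492, 561 and 557 CPM in KI, against 540.5, 685, 554 and 568 CPM in WT (log2 fold change -0.02 ± 0.18, adjusted p = 0.976).

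The smaller targets of female livers had wide spreads. Acot1 was at 76.1, 40.8, 58.8 and 60.8 CPM in KI NASH livers, against 50.2, 35.7, 37.1 and 74.2 CPM in WT NASH livers (log2 fold change 0.26 ± 0.40, adjusted p = 0.818), and Acot2 at 27.2, 10.1, 15.2 and 15.8 CPM in KI, against 15, 15.2, 19.2 and 35.3 CPM in WT (log2 fold change -0.31 ± 0.44, adjusted p = 0.8). Pdk4 was at 57.6, 10.6, 12.8 and 18.6 CPM in KI, against 9.01, 34.9, 27.9 and 66.2 CPM in WT (log2 fold change -0.47 ± 0.54, adjusted p = 0.752). In these genes the range within each genotype overlapped that of the other. Fgf21 was at 2.57, 16.6, 5.11 and 16.1 CPM in KI, against 2.8, 1.62, 2.13 and 5.23 CPM in WT (log2 fold change 1.77 ± 0.65, adjusted p = 0.274), and Vnn1 at 119, 182, 178 and 126 CPM in KI, against 164, 132, 98.6 and 123 CPM in WT (log2 fold change 0.22 ± 0.32, adjusted p = 0.807). Of the cholangiocyte list, the 5 markers other than Spp1 summed to 3.8 to 7.532 CPM in KI, against 7.806 to 12.6 CPM in WT. With Spp1, the targeted gene, the sums were 29.93 to 60.44 CPM in KI, against 57.1 to 107 CPM in WT. The sums of the hepatocyte markers were 129300 to 166100 CPM in KI, against 135700 to 169700 CPM in WT.

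The diet gave few calls in females. In WT livers no member changed, where 0.0376% of the genes tested rose and 0.015% fell, DESeq2 called none, 3 members had an unadjusted p below 0.05 and the median log2 fold change was 0.12. In KI livers Vnn1, Eci1 and Acadm rose with the NASH diet, where 4.21% of the genes tested rose and 4.63% fell, and the median was 0.40. Vnn1 was at 78.2, 47.4, 21.5 and 39.1 CPM in KI control livers (log2 fold change 1.70 ± 0.33, adjusted p = 0.00942), Eci1 was at 119.5, 122, 98.2 and 108 CPM in KI NASH livers, against 83.9, 69.9, 49.4 and 77.2 CPM in KI control livers (log2 fold change 0.68 ± 0.18, adjusted p = 0.0286), and Acadm was at 523, 274, 245 and 255 CPM in KI control (log2 fold change 0.69 ± 0.21, adjusted p = 0.0498). For Vnn1 and Eci1 all KI NASH libraries were higher than all KI control libraries, and KI control library 1 was the highest control library for the 3 genes. Vnn1 kept its call without any single library, Eci1 lost it without any of 6, and Acadm without any of 14 of the 16 libraries. The number of members called was 15 without KI control library 1 and 1 to 5 without others, and 8 with DESeq2.

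On the control diet Vnn1 was the member that fell in KI females, where 4.04% of the genes tested rose and 3.53% fell. Its WT control values were 63, 96.1, 105 and 160.5 CPM (log2 fold change -1.19 ± 0.33, adjusted p = 0.0395), and the call was lost without any of 6 single libraries, with values of -1.57 to -0.92. Acot3 was at 69.4, 192, 64.1 and 160.4 CPM in KI control livers, against 286, 389.8, 333 and 577 CPM in WT control livers (log2 fold change -1.71 ± 0.51, adjusted p = 0.0512). The diet effect differed between KI and WT females for no member, where 2.1% of the genes tested had a higher and 2.67% a lower effect in KI. DESeq2 called 2, and 6 members had an unadjusted p below 0.05.

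The KI effect on the NASH diet was then compared between the sexes in 1 fit over all liver libraries, as the female minus the male log2 fold change. It was higher in females for 14 members and lower for none, where 5.26% of the genes tested were higher and 8.77% lower, and the median was 0.68 over the members. These were 6 spiral genes, Ehhadh and Acaa1b, Cyp4a14, 3 thioesterases, Fgf21 and Vnn1. Cyp4a14 had a female log2 fold change of 0.64 and a male one of -4.82, a difference of 5.45 ± 1.29 (adjusted p = 0.00632). Acadm had 0.29 in females and -0.72 in males, a difference of 1.00 ± 0.25 (adjusted p = 0.00938), and Hadhb had a difference of 0.68 ± 0.15 (adjusted p = 0.00441). Acot2 and Acot3 had differences of 2.27 ± 0.64 (adjusted p = 0.0197) and 4.80 ± 1.30 (adjusted p = 0.0149), Fgf21 of 3.91 ± 1.06 (adjusted p = 0.0152) and Vnn1 of 2.44 ± 0.73 (adjusted p = 0.0253). Cyp4a10 did not pass, at 3.21 ± 1.15 (adjusted p = 0.0608). Leaving out single libraries gave 8 members (without female WT NASH library 3) to 16 members (among others without the merged male WT control sample).

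The diet effect in WT did not differ between the sexes for any member, where 0.842% of the genes tested had a higher and 0.805% a lower effect in females. DESeq2 called 1 member, and 5 had an unadjusted p below 0.05. Without the merged male WT control sample 6 members had a lower effect in females, with log2 differences of -6.04 (adjusted p = 0.00105) for Cyp4a14, -3.69 (adjusted p = 0.00251) for Vnn1, -1.58 (adjusted p = 0.0169) for Crat, -4.13 (adjusted p = 0.0278) for Acot3, -3.6 (adjusted p = 0.0468) for Cyp4a10 and -2.6 (adjusted p = 0.0296) for Acot2, where Acot3 had 0.25 with it. Calls over all genes also grew, to 664 in either direction without the merged sample, against 113 higher and 108 lower with it.

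A wider list of 108 other genes of fatty acid oxidation, ketogenesis, uptake, storage and their control was read in the same fits. The shares of all genes tested that are given with each comparison of the members apply to this list as well. Of the 101 tested in male liver 32 fell and 10 rose in KI on the NASH diet, with 10 of 16 genes of uptake and storage and 3 of 5 of ketogenesis among those that fell, and 6 of 15 control genes among those that rose. The smallest adjusted p belonged to Mogat1, a monoacylglycerol acyltransferase, at 0.530 ± 0.210 CPM in KI, against 8.04 ± 3.72 CPM in WT (SD, n = 4 each; log2 fold change -3.88 ± 0.40, adjusted p = 6.75e-05), to the mitochondrial thioesterases Acot13 and Acot9, with -0.91 ± 0.11 and -1.46 ± 0.22, and to the glycerol channel Aqp7, with -5.08 ± 0.70. With the diet in WT males 25 of the 101 rose and 9 fell, led by Mogat1, Aqp7 and the lipid droplet protein Cidec with log2 fold changes of 5.30 ± 0.53, 6.66 ± 0.98 and 6.07 ± 0.96, while Klb, the co-receptor of Fgf21, fell by 1.13 on the log2 scale. In KI males none changed with the diet (20 at an unadjusted p below 0.05). On the control diet 1 rose and 5 fell in KI males, among them the peroxisomal transporter Abcd2 with -4.09 ± 0.83. The diet effect of KI males was higher than that of WT males for Klb (1.19 ± 0.23) and lower for Mogat1 (-3.66 ± 0.80).

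In female liver none of the 100 wider genes tested differed between KI and WT on the NASH diet, with 17 at an unadjusted p below 0.05, and none changed with the diet in WT, with 18. With the diet in KI 14 rose and 11 fell, led by the droplet proteins Plin4 (-3.52 ± 0.50) and Plin5 (-2.18 ± 0.32), the phosphatidate phosphatase Lpin1 (-3.99 ± 0.67) and the fatty aldehyde dehydrogenase Aldh3a2 (1.01 ± 0.18). On the control diet 6 rose and 2 fell in KI, led by Plin5 (2.28 ± 0.33) and Acox2, a peroxisomal oxidase (1.13 ± 0.17). The diet effect of KI females was higher than that of WT females for 4 and lower for 8 genes, with Plin4 at -5.03 ± 0.68 and the nuclear receptor Esrra at 1.03 ± 0.18. Between the sexes the KI effect on the NASH diet was higher in females for 16 and lower for 7 of 103 genes, with Bdh1, an enzyme of ketone bodies, at 1.00 ± 0.20 and Lpin1 at -4.09 ± 0.89, and the diet effect in WT was higher for 1, Klb (1.12 ± 0.29).

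In the sorted macrophages the members spread over a wide range of levels. As a percentage of the liver level they ran from 1.125% to 631.1% in male KI NASH mice. The 18 hepatocyte markers ran from 0% to 6.936% there. All 15 Kupffer cell markers were above 0 in every macrophage library, and their summed level was 25450 to 60550 CPM. Per kilobase the leading members in male KI NASH macrophages were the peroxisomal enzyme Hsd17b4 at 55.8 ± 11.4, Etfb at 45.1 ± 4.83 and Acadl at 38.7 ± 2.7 CPM per kb (mean ± SD, n = 5), and in male WT control macrophages Hsd17b4 at 71.3 ± 5.05, Etfb at 43.8 ± 6.85 and Cpt1a at 38.9 ± 6.24 CPM per kb (n = 4). At the low end of male WT control macrophages stood Ppara at 0.115 ± 0.0461, Vnn1 at 0.0279 ± 0.0228 and Acot3 at 0.0227 ± 0.0291 CPM per kb. Without WT control library 4 these means were 69.5, 40.6 and 39.5 CPM per kb for Hsd17b4, Etfb and Cpt1a, and 0.0934, 0.0372 and 0.00993 CPM per kb for Ppara, Vnn1 and Acot3. Of the 34 members, Acot3 and Fgf21 in males and Fgf21 in females were too low to be tested, so that 32 and 33 members were tested.

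As a percentage of the liver level of the same sex, genotype and diet, Acot2 in male WT control macrophages was at 451%, Acot1 at 318%, Crat at 99.2% and Cpt1a at 53.5%. Without the 3 libraries whose sex genes go against the label, which leaves 3 macrophage and 2 liver libraries, Acot2 was at 1223%, Acot1 at 616.1%, Crat at 177.3% and Cpt1a at 56.35%. In all, 10 of 34 members moved by over 1.5 times. Ppara was at 1.12% in male KI NASH mice and 0.167% in male WT control mice, and Alb was at 0.849% and 0.190% in the same groups (male WT control without those libraries 0.157% for Ppara and 0.1193% for Alb). Acaa1b was at 3.97% in male KI NASH and 0.432% in male WT control mice, and in females at 0.953% in WT NASH and 0.130% in WT control mice. The median over the members was 15.5% in male KI NASH and 12.2% in male WT control mice, against 1.46% and 0.216% for 18 hepatocyte markers. Without those libraries the male WT control medians were 14.84% for the members and 0.1661% for the markers.

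**Figure D4:**
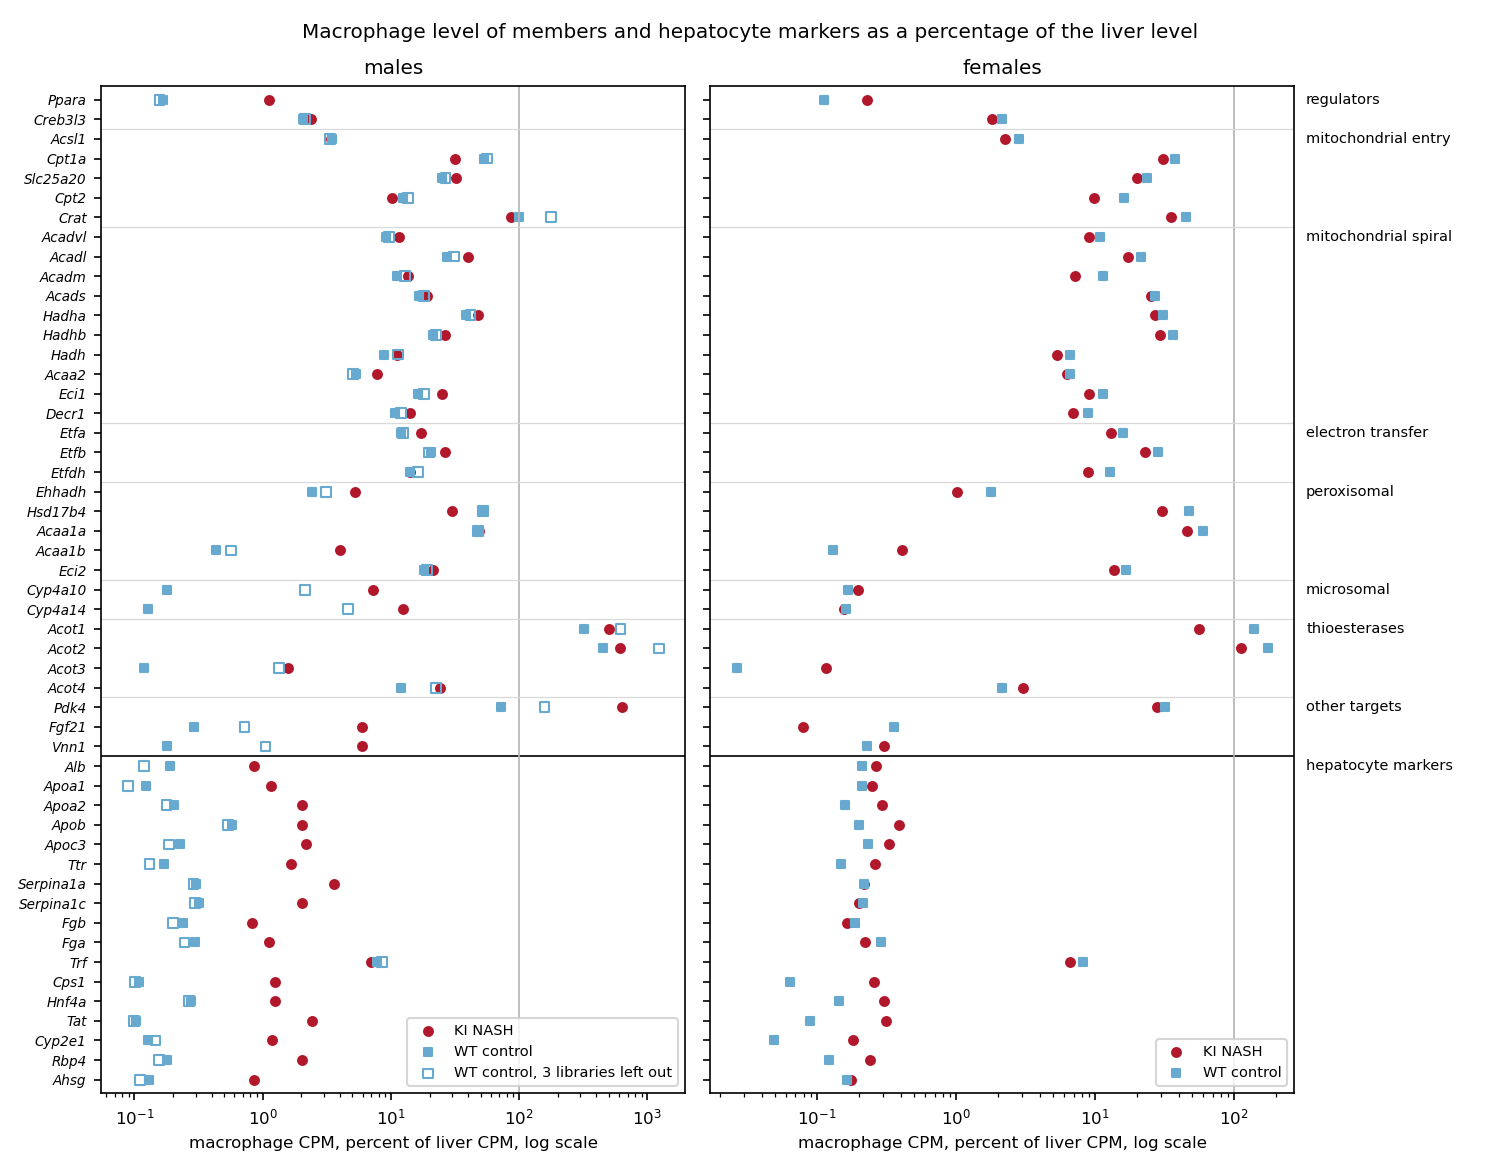
Mean CPM in macrophages as a percentage of mean CPM in liver (log axis) for the members by role and for 17 of the 18 hepatocyte markers (without Ass1), for males and females, with KI NASH as circles and WT control as squares and the grey line at 100%. Open squares are male WT control without the 3 libraries whose sex genes go against the label. Values at 0 are not drawn. Acot1, Acot2, Crat and, in KI NASH, Pdk4 lie near or above the line in males, while Ppara lies at 1.12% (KI NASH) and 0.167% (WT control, 0.157% without those libraries), in the range of the hepatocyte markers.

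With the NASH diet 8 of 32 members rose in male KI macrophages and none fell, where 15.1% of the genes tested rose and 8.94% fell. Ppara was at 2.26, 2.23, 3.73, 13.3 and 2.91 CPM in KI NASH macrophages, against 0.115, 0.294, 0.459 and 0.416 CPM in KI control macrophages (log2 fold change 3.89 ± 0.66, adjusted p = 0.00122). Acaa1b was at 13.7, 18.4, 26.1, 82 and 14.8 CPM in KI NASH, against 1.15, 1.18, 0.871 and 1.25 CPM in KI control (log2 fold change 4.80 ± 0.69, adjusted p = 0.000583). Neither gene overlapped between the diets, and KI NASH library 4 was far above the rest. Cyp4a14 was at 0.872, 3.61, 0.315, 4.79 and 0.435 CPM in KI NASH, against 0, 0, 0 and 0.0595 CPM in KI control, from 210 and 1 counts, a ratio of 151.6 with a counting interval of 26.91 to 6016 (adjusted p = 0.00709). Vnn1 was at 1.28, 1.28, 0.945, 5.64 and 0.783 CPM in KI NASH, against 0 in all KI control libraries, at least 49.81-fold higher when 3 counts are taken as the limit over the group (adjusted p = 0.00261). These were low counts in KI control, and Cyp4a10 had a log2 fold change of 5.82 ± 1.21 (adjusted p = 0.00317). Pdk4 was at 21.4, 18.4, 31.2, 50.2 and 25.5 CPM in KI NASH, against 6.76, 7.94, 10.6 and 9.76 CPM in KI control (log2 fold change 1.74 ± 0.33, adjusted p = 0.00195). Hadha was at 188, 167, 162, 174 and 145 CPM in KI NASH, against 139, 130.3, 123 and 132 CPM in KI control (log2 fold change 0.35 ± 0.09, adjusted p = 0.0115), without overlap and with a small spread. Ehhadh had a log2 fold change of 1.06 ± 0.33 (adjusted p = 0.0289), which was 0.50 without KI NASH library 4. The median over the members was 0.19, and single omissions gave 6 to 10 members.

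Hepatocyte transcripts were high in the same libraries. The summed level of 17 hepatocyte markers (the list without Trf, which macrophages also express) was 655.4 to 4025 CPM in male KI NASH macrophages with library 4 the highest, 88.59 to 437.4 CPM in WT NASH, 235.3 to 353.6 CPM in KI control and 158.8 to 587.9 CPM in WT control, with 16 of 17 markers above 0 in every library and Ass1 at 0 in all but WT control. Alb was at 437, 299.7, 538, 1604 and 214.5 CPM in the KI NASH libraries, in the order used above. Across the 18 male libraries, which share a deposited table and sorting scheme, Spearman's rho with Alb was 0.711 for Ppara, 0.668 for Acaa1b and 0.663 for Vnn1. It was also 0.674 for Acadl and 0.496 for Hadha. The median over the 34 members was 0.395, 11 members had more than 0.5, and the lowest was -0.43 for Cpt1a. The part of hepatocyte RNA in the changes of Ppara, Acaa1b, Ehhadh, Cyp4a10, Cyp4a14 and Vnn1 was not tested. Pdk4 was at 631% of its liver level in male KI NASH mice and Hadha at 48.1%.

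In male WT macrophages Pdk4 was the member that rose with the diet, where 5.36% of the genes tested rose and 2.83% fell. It was at 13.6, 10.4, 22.4, 28.2 and 24.9 CPM in WT NASH macrophages, against 6.79, 4.31, 4.52 and 3.42 CPM in WT control macrophages (log2 fold change 2.07 ± 0.34, adjusted p = 0.00772), with no overlap, and it was called without any single library. Between KI and WT on the NASH diet Ppara and Acaa1b rose in KI, where 2.62% of the genes tested rose and 0.506% fell. Ppara was at the KI NASH values above, against 0.699, 0.237, 1.18, 0.959 and 0.325 CPM in WT NASH (log2 fold change 2.84 ± 0.55, adjusted p = 0.0178), and Acaa1b against 7.94, 2.13, 6.67, 10.6 and 1.99 CPM in WT NASH (log2 fold change 2.40 ± 0.54, adjusted p = 0.0234). The hepatocyte markers were also higher in KI, and their part was not tested. Neither call was made without WT NASH library 1 or WT NASH library 5, or in a fit on the 2 groups alone. Cpt1a was at 235, 212, 214, 223 and 314 CPM in KI NASH, against 271, 237, 258, 200.2 and 299.8 CPM in WT NASH (log2 fold change -0.08 ± 0.13, adjusted p = 0.786). No member differed between KI and WT on the control diet or in its diet effect between KI and WT, where 0% of the genes tested rose and 0% fell and 0% and 0% had a higher and a lower effect. At an unadjusted p below 0.05 there were 2 and 8 members, among 862 and 1595 genes, and DESeq2 called 0 and 3. All counts of called members in male macrophages were the same without WT control library 4.

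**Figure D5:**
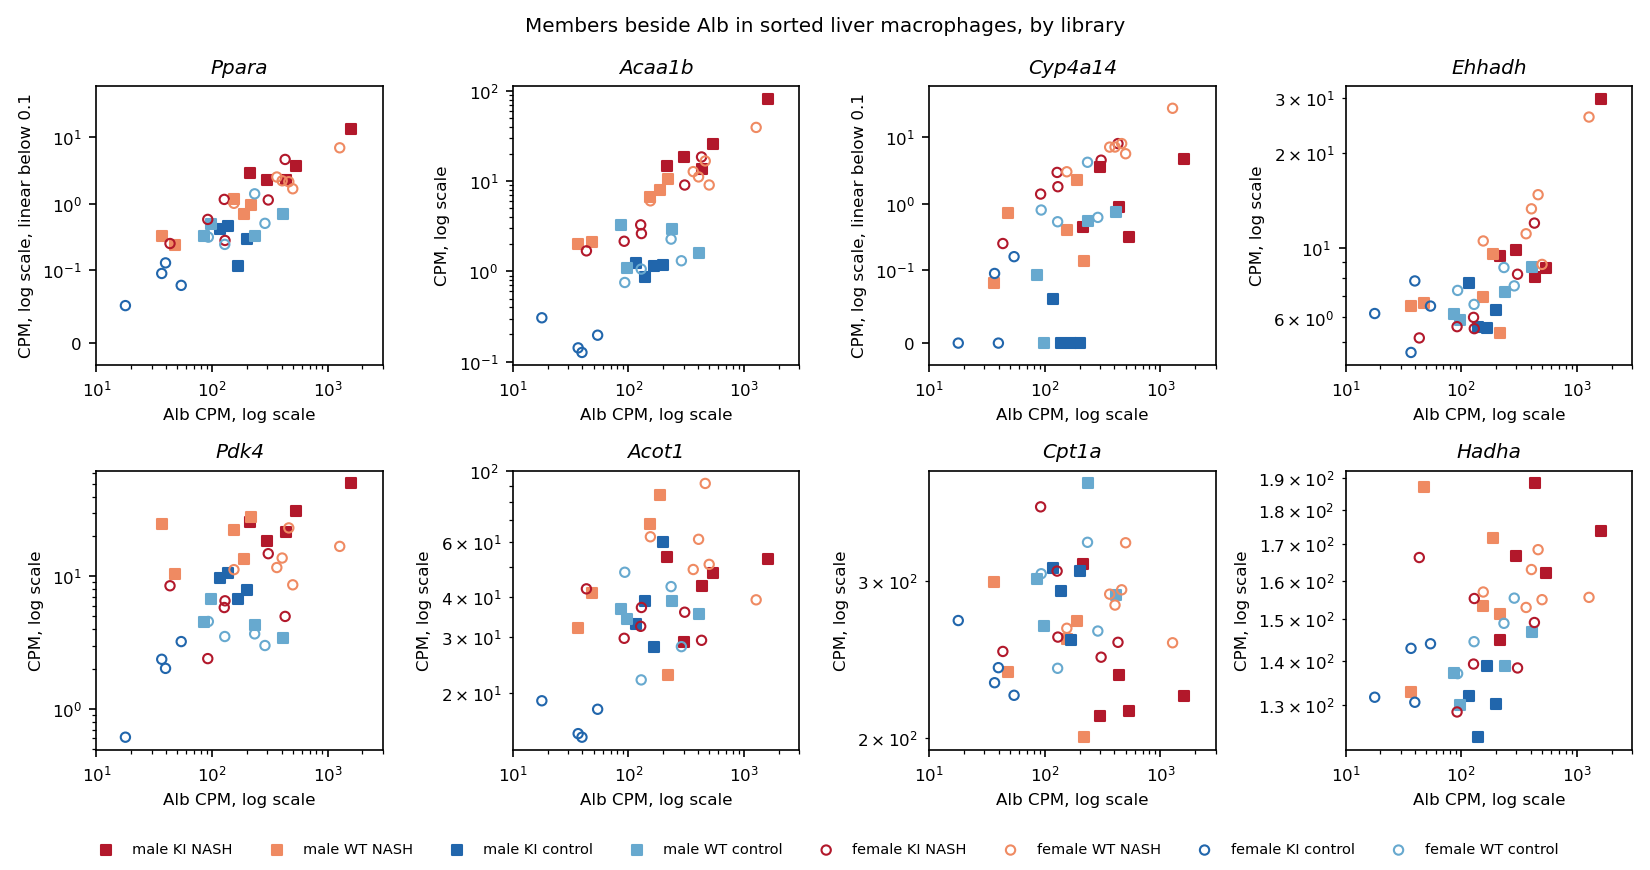
CPM of 8 members in each macrophage library against the CPM of Alb in the same library, on log axes (linear below 0.1 where a member reaches 0). Squares are male and open circles female libraries, coloured by group. Ppara, Acaa1b, Cyp4a14 and Ehhadh are highest among males in KI NASH library 4 and among females in WT NASH library 3, the libraries of each sex with the most Alb, while Cpt1a and Hadha stay within a narrow range.

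In female WT macrophages 7 of 33 members rose with the NASH diet and none fell, where 8.44% of the genes tested rose and 4.42% fell, with a median log2 fold change of 0.15. Acaa1b was at 6.05 to 39.4 CPM, with a median of 11.9 CPM, in the 6 WT NASH libraries, against 1.31, 2.28, 0.754 and 1.06 CPM in WT control macrophages (log2 fold change 3.57 ± 0.71, adjusted p = 0.00507). Pdk4 was at 8.64 to 23.2 CPM, with a median of 12.7 CPM, in WT NASH, against 3.01, 3.68, 4.57 and 3.52 CPM in WT control (log2 fold change 1.94 ± 0.43, adjusted p = 0.00898). Neither overlapped, and both were called without any single library. Acot1 was at 39.3 to 91.5 CPM, with a median of 55.9 CPM, in WT NASH, against 28, 43.3, 48 and 22 CPM in WT control (log2 fold change 0.74 ± 0.22, adjusted p = 0.0328), and Ehhadh at 8.85 to 26.1 CPM, with a median of 12.2 CPM, against 7.56, 8.65, 7.32 and 6.6 CPM (log2 fold change 0.91 ± 0.28, adjusted p = 0.0392). Acot1 overlapped between the diets and Ehhadh did not. Cyp4a10, Cyp4a14 and Acaa2 had log2 fold changes of 3.06 ± 0.87 (adjusted p = 0.0294), 2.71 ± 0.81 (adjusted p = 0.0364) and 0.36 ± 0.12 (adjusted p = 0.0469). Single omissions gave 2 to 10 members, and DESeq2 called 12. The 17 hepatocyte markers summed to 293.2 to 2322 CPM in WT NASH, with library 3 the highest, against 146.5 to 427.4 CPM in WT control, 16 of 17 above 0 in every library and Ass1 at 0, and their part in these changes was not tested.

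In female KI macrophages Ppara, Acaa1b, Cyp4a10, Cyp4a14, Acot1 and Pdk4 rose with the NASH diet, where 1.79% of the genes tested rose and 0.522% fell. Acot1 was at 29.3 to 42.6 CPM, with a median of 34.2 CPM, in KI NASH, against 17.8, 14.9, 18.9 and 14.5 CPM in KI control (log2 fold change 1.06 ± 0.22, adjusted p = 0.0243), with no overlap. Ppara was at 0.248 to 4.65 CPM, with a median of 0.854 CPM, in KI NASH, against 0.0786, 0.0948, 0.0510 and 0.127 CPM in KI control (log2 fold change 3.83 ± 0.95, adjusted p = 0.0425), and Acaa1b at 1.69 to 18.5 CPM, with a median of 2.95 CPM, against 0.197, 0.142, 0.306 and 0.127 CPM (log2 fold change 4.99 ± 0.88, adjusted p = 0.0209). Cyp4a10 came from 199 and 2 counts, a ratio of 72.04 with a counting interval of 19.68 to 599 (adjusted p = 0.0322), Cyp4a14 had a log2 fold change of 5.46 ± 1.17 (adjusted p = 0.0261) and Pdk4 of 1.78 ± 0.43 (adjusted p = 0.0392). The hepatocyte markers summed to 72.18 to 837.2 CPM in KI NASH, against 32.16 to 85.41 CPM in KI control, and their part was not tested. No call was left without KI control library 1 or without KI control library 3, other omissions gave 1 to 8 members, and DESeq2 called 10. Across the 20 female libraries Spearman's rho with Alb was 0.923 for Ppara, 0.89 for Acaa1b, 0.931 for Cyp4a14 and 0.901 for Cyp4a10. It was 0.833 for Ehhadh, 0.747 for Pdk4 and 0.611 for Acot1. The median over the 34 members was 0.357, 13 members had more than 0.5, and the lowest was -0.376 for Crat.

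Between KI and WT females on the NASH diet no member was called, where 0.28% of the genes tested rose and 0.28% fell, and DESeq2 called 3. Of the log2 fold changes 32 of 33 lay below 0, with a median of -0.21, and 15 members had an unadjusted p below 0.05. Their shares over all genes are not given here, so these counts do not set the members apart from other genes. The 17 hepatocyte markers summed to 72.18 to 837.2 CPM in KI NASH, against 293.2 to 2322 CPM in WT NASH. Their part was not tested. Ppara was at 0.248 to 4.65 CPM in KI NASH, against 1.01 to 6.97 CPM in WT NASH (log2 fold change -1.04 ± 0.61, adjusted p = 0.382), and Acot1 at 29.3 to 42.6 CPM in KI, against 39.3 to 91.5 CPM in WT (log2 fold change -0.77 ± 0.19, adjusted p = 0.0689). Cpt1a was at 246 to 364 CPM in KI, against 256 to 332 CPM in WT (log2 fold change -0.03 ± 0.10, adjusted p = 0.912). On the control diet Acot1 fell in KI, where 2.73% of the genes tested rose and 1.91% fell (log2 fold change -1.10 ± 0.24, adjusted p = 0.0143), its KI libraries all lay below its WT libraries, and its call was lost without WT control library 3. The 17 hepatocyte markers summed to 32.16 to 85.41 CPM in KI control, against 146.5 to 427.4 CPM in WT control, and their part was not tested. The diet effect differed between KI and WT females for no member, where 0.195% of the genes tested had a higher and 0.0935% a lower effect in KI, 1 member had an unadjusted p below 0.05, and DESeq2 called 0.

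Set between the sexes, the KI effect on the NASH diet in macrophages was lower in females for 6 members and higher for none, where 0.411% of the genes tested were higher and 3.96% lower. Ppara had a log2 fold change of -1.04 in females and 2.84 in males, a difference of -3.88 ± 0.87 (adjusted p = 0.00424). Acaa1b had -1.35 in females and 2.40 in males, a difference of -3.75 ± 0.79 (adjusted p = 0.00267), and Ehhadh had a difference of -1.89 ± 0.40 (adjusted p = 0.00273). Cyp4a10, Vnn1 and Acaa2 had differences of -4.53 ± 1.12 (adjusted p = 0.0103), -4.22 ± 1.15 (adjusted p = 0.0263) and -0.55 ± 0.16 (adjusted p = 0.0439). The hepatocyte markers moved in the same pattern, with medians of 239.3 CPM in female KI NASH, 790.1 CPM in female WT NASH, 961.9 CPM in male KI NASH and 290.2 CPM in male WT NASH, and their part was not tested. The count was 3 without male KI NASH library 4, 5 without male WT control library 4 and 10 without male KI NASH library 2. The diet effect in WT differed between the sexes for no member, where 0.015% of the genes tested had a higher and 0.00748% a lower effect in females, 4 members had an unadjusted p below 0.05, and DESeq2 called 0.

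Of the wider list, 41 of 94 genes tested rose and 5 fell with the diet in male KI macrophages, where 15.1% of all genes tested rose and 8.94% fell. They were led by the mitochondrial carrier Slc25a47 (3.99 ± 0.59) and the glycerol phosphate dehydrogenase Gpd1 (3.07 ± 0.46), and 12 of 14 genes of uptake and storage rose. The 17 hepatocyte markers summed to 655.4 to 4025 CPM in KI NASH, against 235.3 to 353.6 CPM in KI control, and their part was not tested. In male WT macrophages 5 rose and 2 fell, with the acyl-CoA synthetase Acsl3 at 0.90 ± 0.15 and the fatty acid binding protein Fabp4 at 3.47 ± 0.65. Between KI and WT males on the NASH diet 20 rose, among them Gpd1 (2.13 ± 0.39) and the liver binding protein Fabp1 (2.51 ± 0.46), genes that hepatocytes also express, and the hepatocyte markers were higher in the same libraries, as given above. In females 29 of 90 rose and 2 fell with the diet in WT, led by the monocarboxylate transporter Slc16a1 (2.60 ± 0.44) and the droplet protein Plin2 (0.73 ± 0.14), and 15 rose in KI, with Plin2 at 0.86 ± 0.14 and the lipase inhibitor Angptl4 at 2.26 ± 0.34. On the control diet 2 rose and 4 fell in KI females, among them G0s2, an inhibitor of triglyceride lipase (-2.55 ± 0.45), and none changed in KI males (5 at an unadjusted p below 0.05). Between the sexes the KI effect on the NASH diet was lower in females for 24 and higher for 1 of 95 genes, with the bile acid ligase Slc27a5 at -4.41 ± 0.80. Of all genes tested 3.96% were lower and 0.411% higher. The hepatocyte markers moved in the same pattern, and their medians were higher on the NASH diet in both female genotypes. Their part was not tested.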

How the data were processed

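The authors deposited raw counts per gene, whole numbers with no normalization, in 3 tables (male liver, female liver, macrophages). RNA was isolated with an illustra RNAspin Mini kit (liver) or a Qiagen miRNeasy micro kit (macrophages) and libraries were made with Illumina TruSeq Stranded mRNA, per the labels' protocols. The genome build was mm10, per the submitters' processing notes, and for the aligner, the counting tool and the annotation: not given in the sources used here. Samples were grouped by tissue, sex, genotype and diet from the labels. All 34 members were looked up by symbol. The members and gene lists were chosen with earlier results of these data known.

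Counts were filtered with filterByExpr (minimum count 10, minimum total 15), scaled by TMM and tested with edgeR 4.0.16 (quasi-likelihood, limma 3.58.1, R 4.3.3), with Benjamini-Hochberg adjustment over all genes tested and a threshold of 0.05. Each tissue and sex had 1 fit over its 4 groups, and each tissue 1 fit over its 8 groups for the differences between the sexes, giving 24 comparisons in 6 fits. The SE is the absolute log2 fold change divided by the square root of F. Members were also counted by an unadjusted p below 0.05, by the sign of the log2 fold change and by overlap of the groups. Where no share over all genes stands beside such a count, it does not set the members apart from other genes. Library depth sets the counting error, which intervals and limits alone cover. Male liver WT control libraries 3 and 4 entered as their mean count. Alternatives were DESeq2 1.42.0, its size factors, no low-count filter, a replicate block, fits on 2 groups alone, other treatments of libraries 3 and 4, and leaving out each library. The procedure was also tested on simulated data. Named in the text are, in each role, up to 3 members with the smallest adjusted p, the regulators and a set of 12 members throughout, and up to 4 other pathway genes with the smallest adjusted p, of which 1 is not reported here. Exon lengths and shared 50-base stretches came from GENCODE mouse M21, and promoter windows from RefSeq (GRCm38.p6).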

Additional observations from a re-analysis of the deposited data

Results flagged for a closer look

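A set here is 1 gene in 1 group of 4 to 6 libraries. In 25 of 156 sets examined (16.0%) a library stood apart from the rest by Dixon's criterion, applied to CPM without logs. The criterion's rate of about 1 in 20 holds for independent sets of normally distributed values. Many of these sets share libraries and CPM need not be normally distributed, so the 16.0% cannot be read against that rate. In male liver the KI control library 3 had 107.0 CPM of Cyp4a10 and 20.72 CPM of Cyp4a14, against at most 20.4 and 7.904 CPM in the other KI control libraries. Male KI NASH library 1 had 5.108 CPM of Acot2 and 12.31 CPM of Pdk4, against at most 2.776 and 2.638 CPM in its group, and male WT NASH library 3 had 26.61 CPM of Acot2. In female liver the KI control library 1 had 523.3 CPM of Acadm and 1486 CPM of Acaa1b, against at most 274.5 and 576.6 CPM in its group, and WT control library 4 had 1040 CPM of Cpt1a, against at most 681.4 CPM.

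In male macrophages KI NASH library 4 stood apart for Ppara (13.31 CPM), Ehhadh (29.8 CPM), Acaa1b (82.0 CPM), Cyp4a10 (12.08 CPM) and Vnn1 (5.637 CPM), KI NASH library 5 for Cpt1a (314.0 CPM) and WT NASH library 1 for Cyp4a14 (2.296 CPM). In female macrophages KI NASH library 5 stood apart for Ppara (4.646 CPM) and Vnn1 (1.565 CPM). WT NASH library 3 did so for Ppara (6.97 CPM), Ehhadh (26.05 CPM), Acaa1b (39.4 CPM), Cyp4a10 (15.17 CPM), Cyp4a14 (27.62 CPM) and Vnn1 (3.357 CPM). WT control library 1 had 42.76 CPM of Acadm, and WT control library 2 had 4.21 CPM of Cyp4a14. The summed hepatocyte markers were also highest in KI NASH library 4 among males (4025 CPM) and in WT NASH library 3 among females (2322 CPM), and their part in these values was not tested.

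Members whose KI effect on the NASH diet differed between the sexes, by edgeR's quasi-likelihood test of the difference, were the other results marked for a closer look. In liver the female minus male log2 differences were 0.60 for Acadl, 1.00 for Acadm, 0.68 for Hadhb, 0.76 for Hadh, 1.01 for Eci1 and 0.73 for Decr1. They were 1.16 for Ehhadh, 1.37 for Acaa1b, 5.45 for Cyp4a14, 1.88 for Acot1, 2.27 for Acot2, 4.80 for Acot3, 3.91 for Fgf21 and 2.44 for Vnn1. In macrophages they were -3.88 for Ppara, -0.55 for Acaa2, -1.89 for Ehhadh, -3.75 for Acaa1b, -4.53 for Cyp4a10 and -4.22 for Vnn1.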

How the results depend on the processing

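The counts of members called in male liver between KI and WT on the NASH diet, and between the sexes in that effect, stayed within 1.5 times of the reported value under every change of tool, filter, scaling and fit. With DESeq2 the counts were 1 for the NASH diet in KI male livers, 10 for KI on the control diet in male livers, 1 for the difference of the male diet effects, 8 for the diet in KI female livers, 2 for KI on the control diet in female livers, 2 for the difference of the female diet effects and 1 for the sex difference of the diet effect in WT livers. In macrophages DESeq2 gave 4 for KI on the NASH diet and 3 for the difference of the diet effects in males, 12 for the diet in WT, 10 for the diet in KI, 3 for KI on the NASH diet and 6 for KI on the control diet in females, and 10 for the sex difference of the KI effect. Fits on 2 groups alone gave 2 for the diet in WT male livers, 0 for KI on the control diet in male and 2 in female livers, 0 for the diet in WT and 0 for KI on the NASH diet in male macrophages, and 1 for the diet in KI and 3 for KI on the control diet in female macrophages. Without the low-count filter KI on the control diet gave 2 in female livers, and with male liver libraries 3 and 4 as separate libraries it gave 11 in male livers. The causes were not tested.

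Without male liver WT control libraries 3 and 4 the counts were 1 for KI on the control diet, 3 for the difference of the diet effects and 6 for the sex difference of the diet effect in WT. The counts over all genes in the same order were 695, 626 and 664. Acot3 turned to 3.89 for the diet in WT males and to -4.13 for its sex difference. The ranges over leaving out single libraries were 3 to 17 for the diet in WT (3 to 14 with that sample in), 14 to 20 for KI on the NASH diet, 0 to 7 for KI on the control diet and 0 to 3 for the difference of the diet effects in male livers. In female livers they were 1 to 15 for the diet in KI, 0 to 3 for KI on the control diet and 0 to 4 for the difference of the diet effects. Between the sexes in liver they were 8 to 16 for the KI effect and 0 to 6 for the diet effect. In macrophages they were 6 to 10 for the diet in KI and 0 to 4 for KI on the NASH diet in males, and 2 to 10 for the diet in WT, 0 to 8 for the diet in KI, 0 to 3 for KI on the NASH diet and 0 to 4 for KI on the control diet in females. For the sex difference of the macrophage KI effect the range was 3 to 10.

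Same-numbered libraries were not paired: the correlations of their deviations were -0.147 to 0.217 in male liver, -0.246 to 0.178 in female liver, -0.31 to 0.601 in male and -0.35 to 0.571 in female macrophages. A fit with the replicate number as a block gave 1 member for KI on the control diet in male and 0 in female livers, 3 for the diet in WT male, 4 in WT female and 0 in KI female macrophages. Of the 86 called results, 84 kept their call with DESeq2, 84 with its size factors, 79 without the filter, 68 with the block and 37 of 65 in fits on 2 groups, and 1486 of 1759 omissions of a library kept the call. None of these reversed. At depths of 11245097 to 29966174 counts, members near 0 in macrophages (Cyp4a10, Cyp4a14, Vnn1) rest on few counts in the control groups. Chosen after seeing the data, the omission of the 3 libraries whose sex genes go against the label moved the macrophage-to-liver percentage of male WT control mice by over 1.5 times for 10 of 34 members.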
